A study of Drosophila melanogaster with 4 samples.

Results

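Antisense TSSs within gene bodies are transcription start sites (TSSs) that lie inside a gene but start transcription on the strand opposite to it. A deduplicated TSS was taken as a member where it lay more than 200 bp from any annotated transcript start of its own strand, in no gene of its own strand, and inside a gene of the other strand, which is named its host here. This rule gave 11961 members of 46925 deduplicated TSSs (25.5%, 95% Wilson interval 25.1% to 25.9%), of which 6350 were plus-strand and 5611 minus-strand TSSs. Members lay in introns of their hosts at 7049 sites and in exons at 4912 sites, and 11524 of them (96.3%) had a protein-coding host. No measured value entered the rule, but the authors' list to which it was applied had been cut at a minimum and deduplicated by coverage. Without the TSSs whose value came from the csRNA-seq library of 5931389 reads, and with the deduplication repeated, 7614 members were left.

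Genes of eukaryotes are often transcribed from both strands. Antisense initiation near a gene's start is known from divergent promoters, at which polymerase starts in both directions, and from convergent initiation downstream of the start, which faces the gene's own polymerase. Inside introns, many enhancers start short unstable RNAs on both strands, and further antisense starts belong to long noncoding RNA genes or to neighbouring genes that read back through the host. In compact genomes such as that of the fly, genes also lie inside introns of other genes.

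The study mapped starts of nascent capped RNA in embryos of wild-type Canton S Drosophila melanogaster collected over 0 to 12 h, by capped small RNA sequencing (csRNA-seq), which reads short RNAs that carry a 5′ cap, so the first base of a read is the base of initiation. It made 3 csRNA-seq libraries and 1 input library, with no treated or mutant group. The deposited coverage of a TSS, in reads per 10000000, was 1 value for the experiment, and each value equalled, within a relative tolerance of 1e-09, a whole number of reads of exactly 1 of 3 libraries, of 7299457, 5931389 and 4070746 reads. Embryos of mixed stages were measured, so no value belongs to a cell type, and a rare cell type with strong initiation cannot be told apart from weak initiation in many cells.

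Each TSS carried the value of 1 library, so no spread between libraries at a TSS and no test across libraries could be had. All intervals below have a confidence level of 95% and cover counting error only, as PCR copies of a molecule were not told apart. The input library was not analysed here, so no level of uncapped background stands beside the members. The library whose reads set the value was that of 5931389 reads for 43.1% of members, that of 4070746 reads for 34.3% and that of 7299457 reads for 22.5%, against 43.1%, 34.1% and 22.9% of all deduplicated TSSs. How many libraries held a TSS in the same cluster (TSSs of a strand whose windows of 200 bp on each side overlap) is given below as the only available sign of agreement between libraries. A cluster of 1 TSS can show only 1 library, whether or not the others read the same base.

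Members were numerous but weak. Their median coverage was 4.91, with quartiles of 3.37 and 7.37, where 3.37 was also the lowest coverage in the whole deduplicated list. Of the members, 5336 (44.6%) rested on 2 reads. Their coverage summed to 2.04% of that of all deduplicated TSSs, against 93.3% for the 11772 TSSs within 200 bp of an own-strand start, whose median coverage was 42.1. A coverage of at least 10 was reached by 1778 members (14.9%, interval 14.2% to 15.5%), against 79.1% of TSSs near an own-strand start, a difference of -64.2 percentage points (-65.2 to -63.2).

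The members' coverage was close to that of the other TSSs away from starts. The share at coverage of at least 10 was 14.9% among members and 15.6% among the 7697 TSSs in introns of an own-strand gene, and the difference of -0.75 percentage points had an interval of -1.79 to 0.27. Against the 7817 intergenic TSSs away from starts, of which 14.6% reached this coverage, the difference was 0.27 percentage points (-0.75 to 1.27). Only the 7480 TSSs in exons of an own-strand gene were set apart among these classes, with 8.93% at this coverage and a difference of 5.93 percentage points (5.02 to 6.84). Among the most covered TSSs this order was turned, with 85 of 11961 members and 85 of 7480 sense exonic TSSs at coverage of at least 100.

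**Figure D1:**
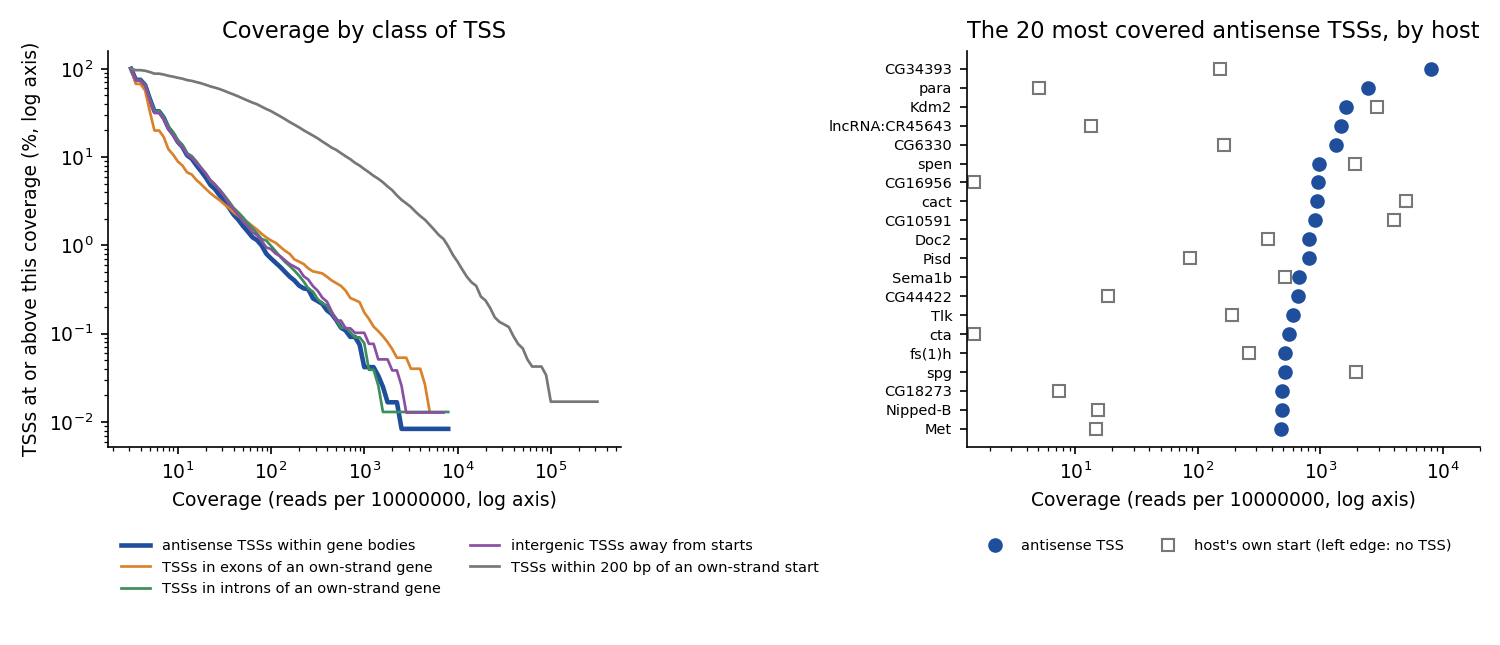
Left, the share of TSSs (%, log axis) at or above each coverage (reads per 10000000, log axis) for members and for the 4 other classes of TSS: the members' line runs with those of sense intronic and intergenic TSSs, far below that of TSSs near an own-strand start. Right, coverage of the 20 most covered members (filled circles) and the highest coverage at an annotated start of each one's host (open squares, at the left edge where no TSS was found): 15 of the 20 members lie to the right of their host's start. The 20 were picked by their coverage, which favours such an excess, and the share over all members is not given.

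Agreement between libraries grew with the reads of a member but stayed below that at annotated starts. A second library held a TSS in the same cluster for 2771 members (23.2%), against 82.4% of TSSs near an own-strand start. Among members with 2 reads this share was 7.80%, among those with 4 to 9 reads 40.8%, and among those with 50 or more reads 78.4% (interval 69.8% to 85.0%). Of TSSs near an own-strand start, 71.2% of those with 4 to 9 reads had a second library (69.2% to 73.1%). With 50 or more reads the share was 99.5% (99.2% to 99.7%). That class has no upper limit, so depth was not matched within it. A coverage of at least 1000 was reached by 861 TSSs near an own-strand start and by 5 members. Sense intronic TSSs with 50 or more reads had 85.4% (76.1% to 91.4%), an interval that overlaps that of the members.

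The most covered member started on the plus strand inside CG34393, at position 3188685 of chromosome 2L (dm6), within coding sequence 11811 bp from the host's start. Its coverage was 7959 (3240 reads), against 152.3 at the best used start of CG34393 itself, and 98.8% of the coverage of its cluster lay on this single base, with the rest on 5 further TSSs that brought the libraries in the cluster to 3. The next was antisense to the 3′ UTR of para, which encodes the voltage-gated sodium channel, at position 16456849 of chromosome X on the plus strand. It had a coverage of 2439, against 5.06 at the starts of para, and its cluster held 21 TSSs of 3 libraries over 137 bp. Of the coverage of that cluster, 80.6% lay on the member's base. Both members exceeded the starts of the gene they lie in, which their choice by coverage favours.

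Kdm2, a histone lysine demethylase gene, held the third, in an intron at position 9057194 of chromosome 3R on the minus strand, 4699 bp from the host's start. Its coverage was 1612, against 2898 at the starts of Kdm2. The noncoding RNA gene lncRNA:CR45643 held the fourth, 45 bp inside its annotated start at position 16223440 of chromosome 3R on the minus strand, with a coverage of 1464 against 13.5 at the host's own start. CG6330 followed with an intronic member of coverage 1334 at position 26955197 of chromosome 3R on the plus strand, against 163.0 at its starts. This last cluster held TSSs of 1 library only.

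The members of cact, Doc2 and cta stood at ranks 8, 10 and 15 by coverage. In cact, which encodes the IκB-like inhibitor of the dorsoventral factor Dorsal, a plus-strand member at position 16326042 of chromosome 2L had a coverage of 940.8 and lay in 5′ UTR 165 bp inside the host's outermost start. The used start of cact, with a coverage of 4969, lay 424 bp upstream of it on the other strand, so that the pair pointed away from each other. Doc2, a Dorsocross T-box factor gene, held an intronic member with a coverage of 803.3 at position 9014286 of chromosome 3L on the plus strand, against 372.6 at its own starts. Its cluster held 2 TSSs of 1 library, with 97.6% of the coverage on the member's base. cta, which encodes the G-protein alpha subunit of gastrulation movements, had no TSS at its annotated starts and a member of coverage 550.7 in coding sequence, 588 bp inside the gene at position 22982404 of chromosome 2L on the minus strand.

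The members of spen, Tlk, fs(1)h and Nipped-B stood at ranks 6, 14, 16 and 19. spen, an RNA-binding transcriptional regulator, held a member of coverage 971.1 in 5′ UTR, against 1909 at its starts. The intronic member of fs(1)h, the BET bromodomain gene, had 516.5, against 260.4 at its starts. Nipped-B, which encodes the cohesin loader, had 482.2 in an intron, against 15.2 at its starts, and Tlk, the Tousled-like kinase gene, had 596.9 in an intron, against 190.4. The member of spen stayed below its host's starts.

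The remaining hosts were CG16956 (960.5), CG10591 (903.7), Pisd (800.8), Sema1b (664.3), CG44422 (657.6), spg (509.6), CG18273 (488.9) and Met (474.0), with the member's coverage in brackets. Pisd encodes phosphatidylserine decarboxylase, Sema1b a semaphorin, spg a DOCK-family exchange factor and Met a juvenile hormone receptor. Of the 20 members, 12 were antisense to exons and 8 to introns, 4 lay within 500 bp of the host's start, 15 in the body and 1 within 500 bp of its 3′ end. They held 19.8% of the members' summed coverage. In 14 of the 20 the cluster drew on at least 2 libraries, and the clusters in CG6330, CG10591, Doc2, CG18273, Nipped-B and Met held TSSs of 1. Those in CG10591, CG18273 and Nipped-B had 1 TSS and so could hold only 1 library.

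Some of the strongest members were stacks of reads on a single base. The members of CG10591, CG18273 and Nipped-B each formed a cluster of 1 TSS despite 536, 290 and 352 reads. Such a cluster shows 1 library by construction, so reads of the other libraries at that base are unknown. That of CG10591 lay 30 bp inside the gene in 5′ UTR, at position 5599662 of chromosome 3L on the plus strand, and the gene's own used start, with a coverage of 4014, lay 27 bp downstream of it on the other strand. Among the 85 members with a coverage of at least 100, 12 (14.1%) were the only TSS of their cluster, against 8 of 3899 TSSs near an own-strand start (0.21%), a difference of 13.9 percentage points (8.06 to 22.9). The TSS held at least 90% of the cluster's coverage in 32.9% of these members and in 4.10% of those near-start TSSs. Intergenic TSSs of this coverage were as narrow as the members within counting error, with 14.1% alone in their cluster and a difference of 0.033 percentage points (-11.5 to 10.95).

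Members were densest close to the start of the host. Density was counted per megabase (Mb) of eligible bases, the bases at which a TSS would count as a member, of which there were 88.5 Mb. These bases lay in genes with and without a member. Within 500 bp of the host's start there were 1633 members (13.7%) at 242.6 per Mb (231.0 to 254.7), against 125.8 in the body (123.3 to 128.4), which held 9593 members (80.2%). The ratio was 1.93 (1.83 to 2.03). Within 500 bp of the 3′ end there were 735 members (6.14%) at 132.0 per Mb, and the ratio to the body of 1.05 (0.97 to 1.13) did not exceed counting error. Among members at coverage of at least 10 the ratios were 2.14 (1.87 to 2.44) at the start and 1.02 (0.83 to 1.25) at the 3′ end.

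In the deduplicated list, the highest density did not lie at the start itself. Deduplication retains only the most covered TSS of overlapping windows of a strand, also where these reach beyond the host. Its part in the densities closest to the start was not tested. It was 176.0 and 181.0 per Mb in the first and the second 100 bp of the host, reached 334.2 (303.9 to 366.6) between 400 and 500 bp, and was 184.2 between 900 and 1000 bp. Farther inside it was 153.3 between 2000 and 3000 bp, 119.7 between 10000 and 20000 bp and 78.8 (74.4 to 83.4) beyond 50000 bp. No density of that height was seen at the 3′ end, where the densities of the 10 bins of 100 bp nearest the end lay between 110.7 and 160.8.

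**Figure D2:**
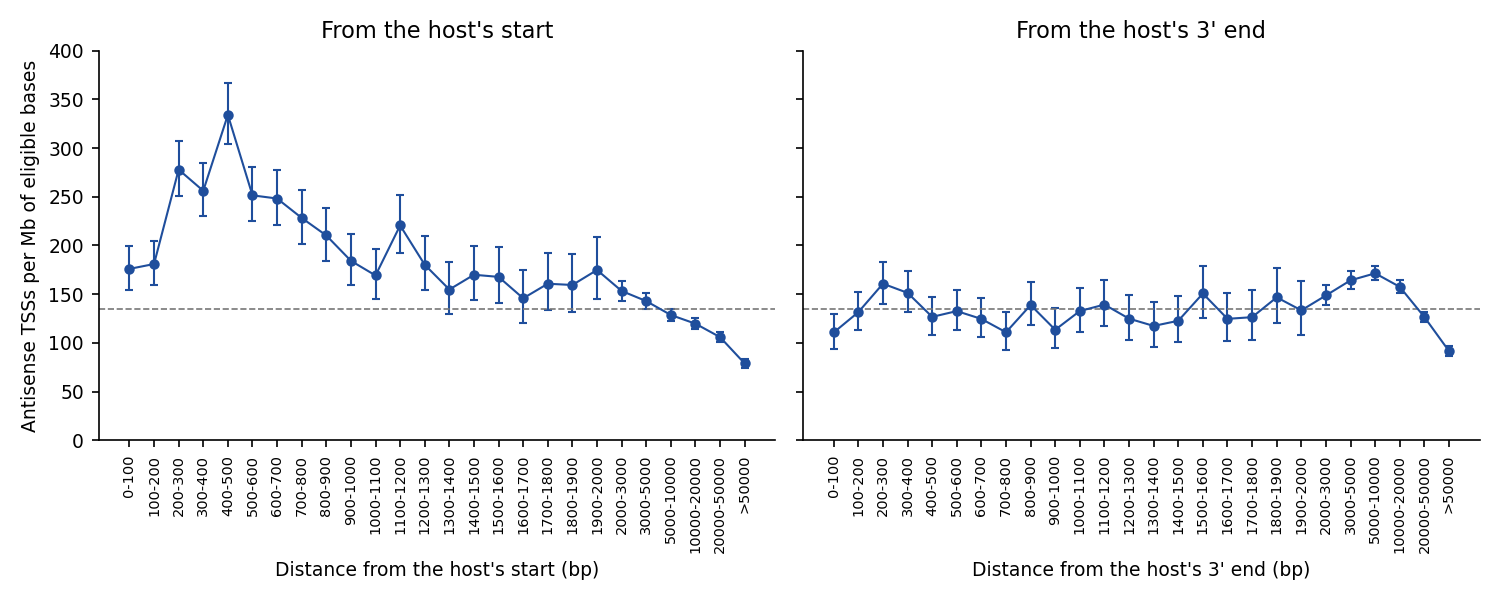
Antisense TSSs per Mb of eligible bases by distance (bp, in bins of unequal width) from the host's start, left, and from its 3′ end, right, with 95% exact Poisson intervals and the mean over all eligible bases as a dashed line: density is highest at 400 to 500 bp inside the start (334.2) and lowest beyond 50000 bp (78.8), while the last 1000 bp stay between 110.7 and 160.8.

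The same decline was seen when hosts were put on a common scale. For the 10364 members with a single host of at least 2000 bp, density was 239.5 per Mb in the first decile of the gene's length, 169.3 in the second, 117.3 in the fifth and 101.5 (94.7 to 108.8) in the last. At coverage of at least 10 the first decile had 39.7 (35.4 to 44.4) and the last 15.5 (12.9 to 18.5). Both lists thus had their highest density in the first decile.

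Exons and introns differed in density, and the direction of the difference changed with position. Over all eligible bases, those antisense to exons held 150.8 members per Mb and those antisense to introns 125.9, a ratio of 1.20 (1.15 to 1.24). Within 500 bp of the host's start the ratio was below 1, at 0.81 (0.72 to 0.92), with 233.2 per Mb on exons and 287.3 on introns. In the body it was 1.09 (1.05 to 1.14), and at coverage of at least 10 in the body it was 1.00 (0.89 to 1.12). Within 500 bp of the 3′ end only 24 members lay on introns, and the ratio of 1.42 had an interval of 0.95 to 2.23.

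The excess on exons lay in 5′ UTRs and noncoding exons. Members antisense to 5′ UTR numbered 1146 at 318.0 per Mb, 2.53 times the density on introns (2.37 to 2.69). In the body alone, more than 500 bp from the host's outermost start, 5′ UTR bases still had 324.4 per Mb, 2.65 times the density on introns there (2.41 to 2.89). Such bases belong to transcripts that start inside the host or to later exons of a 5′ UTR. Coding sequence had 1.02 times the density on introns (0.98 to 1.07), 3′ UTR 0.94 times (0.87 to 1.01) and noncoding exons 1.43 times (1.28 to 1.60). Where members and bases within 500 bp of a transcript start of either strand were left out, the exon over intron ratio was 1.04 (0.99 to 1.09).

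**Figure D3:**
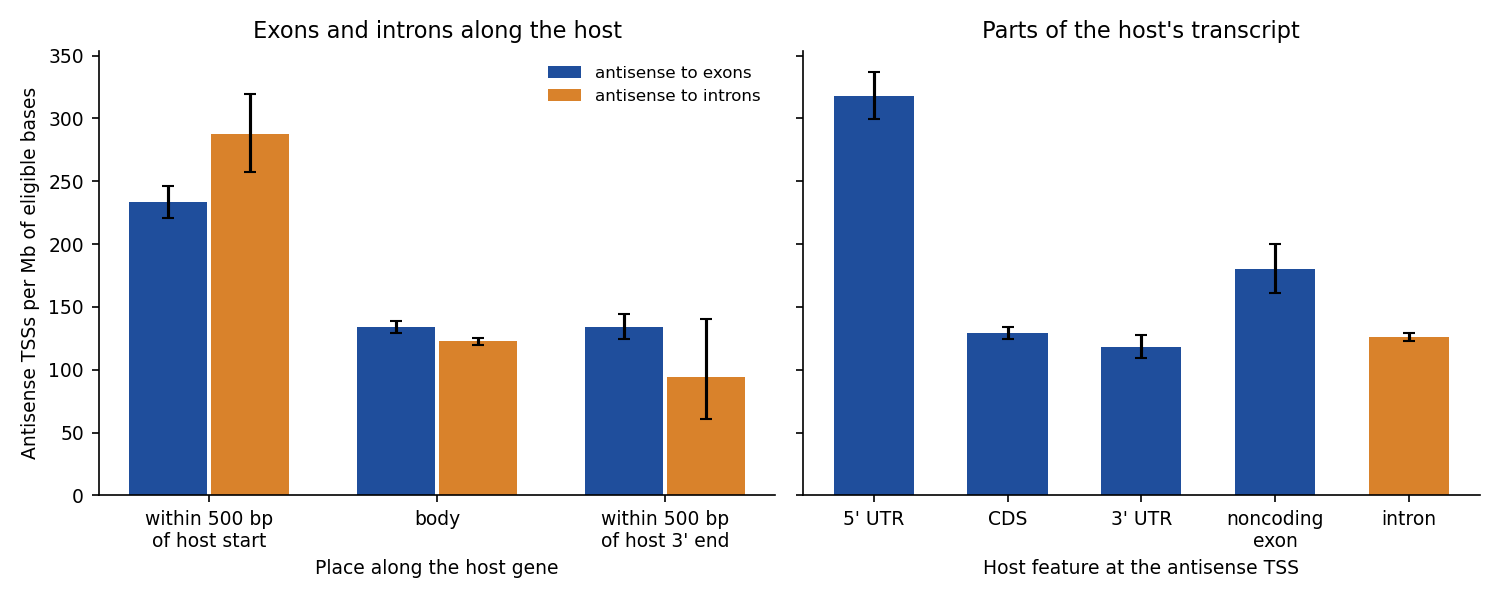
Antisense TSSs per Mb of eligible bases with 95% exact Poisson intervals, left for exons and introns of the host within 500 bp of its start, in its body and within 500 bp of its 3′ end, and right by the host feature at the TSS: exons exceed introns slightly in the body (133.9 and 122.6), fall below them near the start (233.2 and 287.3), and 5′ UTRs stand above every other feature (318.0).

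The neighbourhood of members on the host's strand was then compared on both sides. A deduplicated TSS of the host's strand within 500 bp upstream of a member points away from it (divergent), and one within 500 bp downstream points toward it (convergent). Upstream TSSs were found for 2494 members (20.9%, 20.1% to 21.6%) and downstream TSSs for 2908 (24.3%, 23.6% to 25.1%), a difference of -3.46 percentage points (-4.56 to -2.36). Neither was found for 6991 members (58.4%).

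This difference lay in members near the host's start and was turned in the body and at the 3′ end. Within 500 bp of the host's start, 20.6% had an upstream and 75.4% a downstream TSS on the host's strand, which the zone itself favours since the host's start then lies downstream. In the body 20.6% had an upstream and 16.5% a downstream TSS, a difference of 4.09 percentage points (2.96 to 5.20). Within 500 bp of the 3′ end the difference was 12.1 percentage points (8.22 to 15.6). Within the body the difference was 6.98 percentage points (5.68 to 8.26) for intronic members and -2.58 (-4.71 to -0.43) for exonic members. The negative value of exonic members was not kept at coverage of at least 10. It was then 5.50 (-0.66 to 11.4), an interval that includes 0, against 9.83 (6.16 to 13.3) for intronic members. At coverage of at least 10 in the body, 26.3% had an upstream and 17.7% a downstream TSS, and the difference widened to 8.60 percentage points (5.44 to 11.6). When TSSs near annotated starts were left out as partners, 15.1% of all members had an upstream and 10.9% a downstream TSS, with a difference of 4.197 percentage points (3.34 to 5.04). By zone, the difference was then 9.80 percentage points (8.53 to 10.7) near the host's start and 3.62 (2.61 to 4.61) in the body. At the 3′ end it was -0.68 (-3.78 to 2.46), so no upstream excess was seen there without partners near annotated starts.

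The shares with a partner were then set against those of other TSSs away from starts. Members had an upstream partner at 20.9%, against 17.8% of sense intronic TSSs, a difference of 3.01 percentage points (1.88 to 4.13), and a downstream partner at 24.3%, against 13.3%, a difference of 11.03 percentage points (9.95 to 12.1). Set against intergenic TSSs, with 22.1% upstream and 10.1% downstream, the differences were -1.20 percentage points (-2.38 to -0.036) and 14.2 percentage points (13.2 to 15.2). TSSs in exons of an own-strand gene had 10.7% upstream and 7.98% downstream, and members exceeded them by 10.1 percentage points (9.11 to 11.1) and 16.3 percentage points (15.3 to 17.3). A host strand is present around every member by the rule, which is not so for intergenic TSSs.

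The downstream differences were smaller for members of the body than for all members. Members of the body exceeded sense intronic TSSs by 2.78 percentage points upstream (1.60 to 3.96) and 3.25 downstream (2.19 to 4.31). They differed from intergenic TSSs by -1.44 percentage points upstream (-2.66 to -0.21) and 6.40 downstream (5.40 to 7.40), and from sense exonic TSSs by 9.90 upstream (8.82 to 10.96) and 8.55 downstream (7.58 to 9.51). At coverage of at least 10 the upstream difference of body members was 1.59 percentage points from sense intronic TSSs (-1.78 to 4.92), -0.78 from intergenic TSSs (-4.25 to 2.65) and 0.85 from sense exonic TSSs (-3.25 to 4.79), intervals that each include 0. The downstream differences at this coverage were 2.89 (0.038 to 5.70), 7.44 (4.76 to 10.1) and 2.73 (-0.75 to 5.98) percentage points from the same classes.

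Partners stood at preferred distances. Around members of the body, host-strand TSSs were most frequent upstream at 101 to 150 bp, with 2.98 per 100 members in 50 bp, and fell to 1.49 at 351 to 400 bp. Downstream they peaked in the first 50 bp, with 3.23 per 100 members, against 2.19 in the first 50 bp upstream and 1.70 from 51 to 100 bp downstream. On a finer scale, 294 host-strand TSSs lay 11 to 40 bp downstream of a member over all zones, against 163 at 11 to 40 bp upstream. In the body the same counts were 213 and 137. Around members near the host's start, the downstream side held up to 11.6 host-strand TSSs per 100 members in 50 bp, at 201 to 250 bp.

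**Figure D4:**
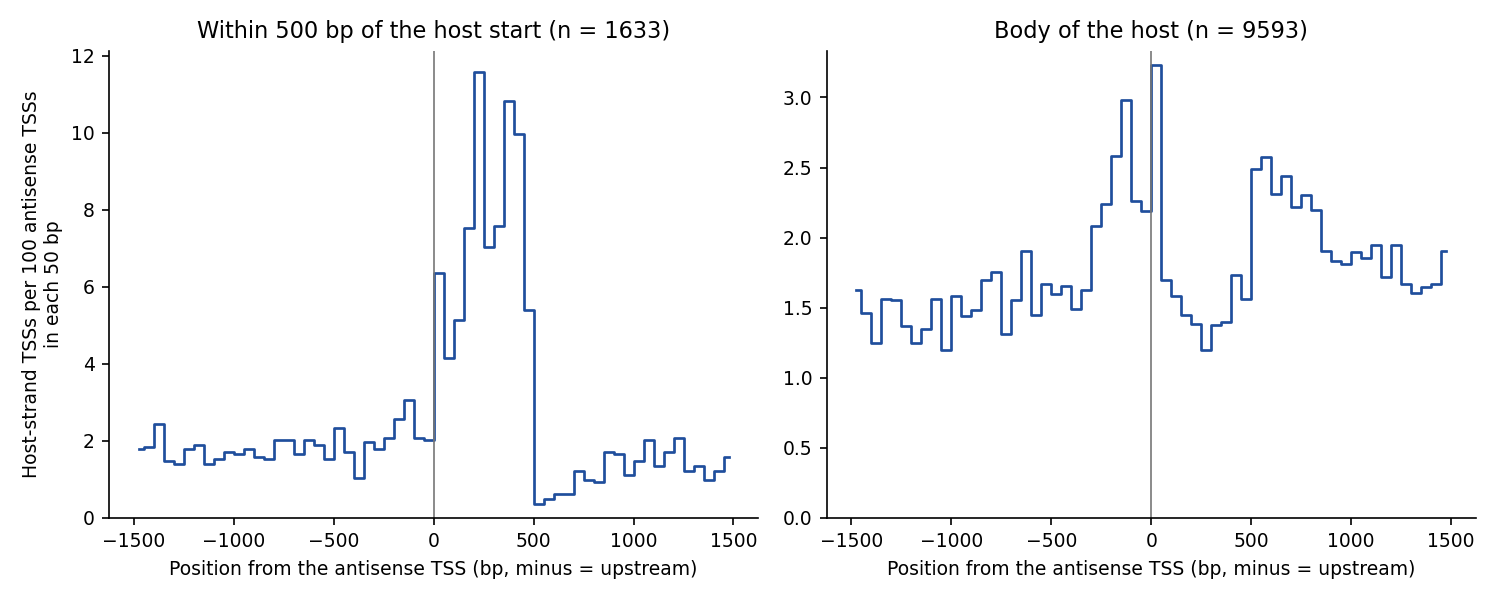
Host-strand TSSs per 100 members in bins of 50 bp against position from the member (bp, minus is upstream in the member's direction), for the 1633 members within 500 bp of the host's start, left, and the 9593 in the body, right, with different vertical scales: in the body there is a broad rise at 101 to 150 bp upstream (2.98) and a narrow one in the first 50 bp downstream (3.23). The steps at 500 bp follow from the width of the zone at the host's start.

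Hosts were the longer genes, which their definition favours, as a longer gene offers more bases for a member. Of 16132 genes with eligible bases, 5218 (32.3%) held at least 1 member, with a median length of 5341 bp, against 1210 bp for genes without a member. A single member was found in 2901 hosts, 2 to 4 members in 1700, 5 to 9 in 458 and 10 or more in 159. More than 1 host was possible for 549 members.

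Hosts more often had a used start of their own, that is, a deduplicated TSS within 200 bp of an annotated start on their strand. This held for 4452 of 5218 hosts (85.3%), against 5485 of 10914 other genes (50.3%), a difference of 35.1 percentage points (33.7 to 36.4). Since length and use go together, the comparison was repeated within classes of length. The difference was 26.4 percentage points (23.3 to 29.3) below 2000 bp, 12.9 (10.3 to 15.4) from 2000 to 4999 bp, 9.92 (7.05 to 13.0) from 5000 to 19999 bp and 11.7 (3.17 to 24.8) from 20000 bp upward. The kind of gene was not held fixed. Protein-coding genes were 4900 of the 5218 hosts and 12769 of the 16132 genes with eligible bases, and their part in these differences was not tested.

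Density also went with the level at the host's start. In the body it was 70.5 members per Mb (65.0 to 76.4) in genes with no TSS at a start, 74.0 (67.7 to 80.8) below a coverage of 10, 109.5 from 10 to 99, 145.7 from 100 to 999 and 162.4 (156.0 to 168.9) at 1000 or more. Intervals of the first pair of levels overlapped, and each later level lay above the one before. The exon over intron ratio in the body moved the other way, with 1.42 (1.20 to 1.68) in genes with no TSS at a start and 0.98 (0.89 to 1.09) at 1000 or more. The lowest levels include very long genes with few members per Mb. Myo81F, with 5.06 at its starts, had 75 members in 1963245 eligible bases, and its level had 7.96 Mb over whole genes. Pzl, with no TSS at its starts, had 24 in 709421, and its level had 12.4 Mb. The part of such genes in the densities and ratios was not tested.

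**Figure D5:**
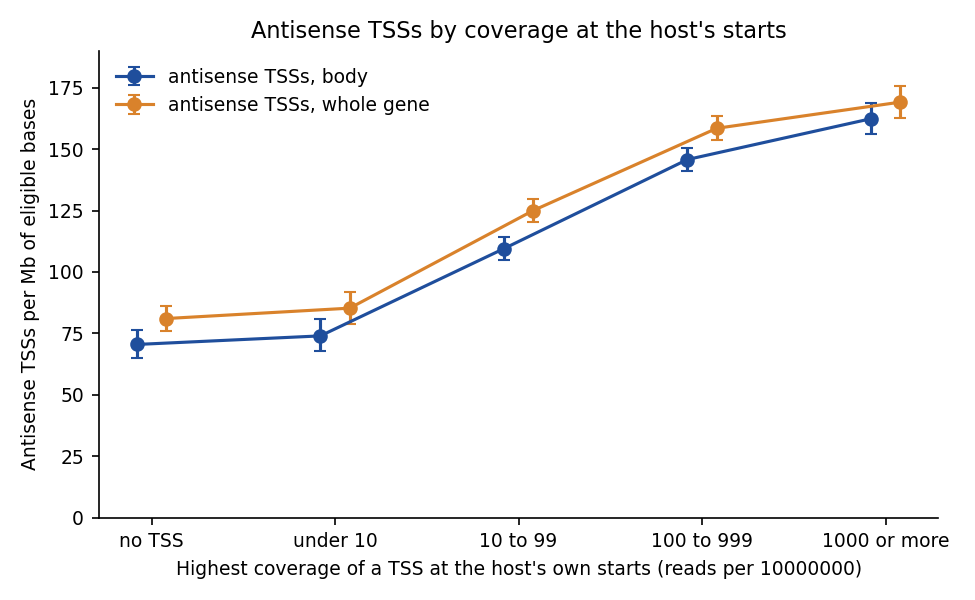
Antisense TSSs per Mb of eligible bases, in the body of the host and in the whole gene, by the highest coverage of a TSS at the host's own annotated starts (reads per 10000000), with 95% exact Poisson intervals: density in the body is 70.5 in genes with no TSS at a start and 162.4 in genes with a start of coverage 1000 or more.

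Density was also higher where an annotated start of the member's own strand lay ahead. Where the next own-strand start downstream was 500 to 999 bp away, members had 281.6 per Mb (263.1 to 301.1), where it was 2000 to 4999 bp away 168.5, and where it was 20000 bp or more away 100.1 (96.8 to 103.4). In the closest class, 201 to 499 bp, density was 158.4, and there the deduplication retains only the most covered TSS of overlapping windows. Density went with each distance at a fixed level of the other. In the body, density was 203.8 (192.9 to 215.2) with an own-strand start less than 2000 bp ahead and 118.7 (116.1 to 121.2) otherwise, and near the host's start the same values were 274.1 (255.3 to 293.9) and 219.1 (204.6 to 234.4).

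The hosts with most members were long genes. Myo81F, a myosin gene of 1965857 bp on chromosome 3R (567076 to 2532932), held 75 members, 1 of them exonic, at 38.2 per Mb (30.05 to 47.9). Pzl, a Piezo-like channel gene of 709421 bp on chromosome 3R, held 24 at 33.8 (21.7 to 50.3). Both densities lay below the 135.1 over all eligible bases. In both genes the starts had little or no coverage, with 5.06 at Myo81F and no TSS at Pzl.

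The other hosts by count had higher densities than these, and not all lay above the density over all eligible bases. EcR, the ecdysone receptor gene, held 23 members at 301.9 per Mb (191.4 to 453.1), Eip75B, an ecdysone-induced nuclear receptor gene, 29 at 262.6 (175.9 to 377.1), jing, a zinc-finger gene, 30 at 259.0 (174.7 to 369.7), and hth, the homeodomain cofactor of Hox proteins, 30 at 228.1 (153.9 to 325.6). sick held 29 at 188.2 (126.0 to 270.3), an interval that includes the 135.1 over all eligible bases. kirre, an immunoglobulin-family gene of myoblast fusion, held 29 at 84.2 (56.4 to 120.9), below that value. lncRNA:CR44357 with 36 members and CG1677 with 26 overlap on chromosome X and share members. These hosts were picked by their counts, so that their rank is a description.

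Developmental gene families were surveyed by lists of 83 symbols in 9 groups, of which 81 matched, and by the 87 cytosolic ribosomal protein genes. The comparison value is 135.9 members per Mb over all protein-coding genes (133.5 to 138.4), in which 4900 of 12769 genes with eligible bases held a member. Hox genes, which set segment identity, held 55 members in 8 of 8 genes at 170.5 per Mb (128.5 to 222.0). Antp had 17 and Ubx 14 of them, and the most covered, 35.4, lay in an intron of Scr 1000 bp from its start, at position 6848981 of chromosome 3R on the plus strand. The interval of the Hox list includes the value over all genes.

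The lists whose interval lay above the value over all protein-coding genes were those of Notch, the ecdysone cascade, ribosomal proteins and segment polarity. The lists differ in gene length and in coverage at the starts, whose part in these densities was not tested. At coverage of at least 10 only the Notch list kept an interval above that of all protein-coding genes, at 49.7 per Mb (22.7 to 94.4), against 20.1. It rested on 9 members, 4 of them in mam and 2 in numb. The interval counts members of the same gene as independent, and no allowance was made for the number of lists. At this coverage the ecdysone cascade list had 23.4 (11.2 to 43.0), ribosomal proteins 24.8 (5.12 to 72.5) and segment polarity 30.8 (8.39 to 78.9). Notch pathway genes held 55 members in 7 of 7 matched genes at 304.0 per Mb (229.0 to 395.7), led by an intronic member of mam, the Notch coactivator, with a coverage of 86.0 at position 14000763 of chromosome 2R on the minus strand and TSSs of 3 libraries in its cluster. Genes of the ecdysone cascade list held 98 in 8 of 8 genes at 229.1 (186.0 to 279.2), and the best covered was that of EcR, 50.7, antisense to its 3′ UTR. Genes of the segment polarity list held 28 in 5 of 8 genes at 215.7 (143.3 to 311.7), with the highest coverage of 24.6 in ptc, the Hedgehog receptor gene. Ribosomal protein genes are short and their starts strong, and 30 of 85 with eligible bases held 34 members at 281.3 (194.8 to 393.1), with a maximum of 19.7 antisense to the 3′ UTR of RpL13.

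The intervals of the other lists included the value over all protein-coding genes. Muscle genes held 43 members in 11 of 12 genes at 175.4 (127.0 to 236.3), with Zasp52, a Z-disc protein gene, at 46.7. Genes of axon guidance and adhesion held 121 in 15 of 16 genes at 121.1 (100.5 to 144.7), led by a member of coverage 67.1 in the coding sequence of Dscam1, the adhesion receptor gene known for its alternative splicing. Dorsoventral genes held 22 in 6 of 6 genes with eligible bases at 201.5 (126.3 to 305.1), with dpp, the BMP ligand gene, at 24.6.

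Gap and pair-rule genes act in early segmentation. Over the lists, the members' median coverage lay between 4.1099 and 9.59, against 4.91 over all protein-coding genes, and the highest median was that of the 3 members in gap genes. Gap genes had 3 members in 3 of 5 genes with eligible bases, the best covered being 11.8 in the coding sequence of gt, a bZIP repressor gene. Pair-rule genes had 8 in 3 of 8 genes, none at coverage of at least 10, and 5 of them lay in opa, a zinc-finger gene of 17167 bp, with a highest coverage of 5.06. Their densities were 194.0 per Mb (40.0 to 566.9) for gap and 226.3 (97.7 to 446.0) for pair-rule genes, intervals that include the value over all protein-coding genes.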

How the data were processed

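The authors aligned the csRNA-seq reads to dm6, derived TSSs from the 5′ ends of reads with HOMER, and deposited for each TSS a coverage (a signal scaled to 10000000 reads) and, for deduplicated TSSs, the log2 score of coverage + 1, which was not used for a result. Their processing notes name bcl2fastq 2.17, STAR 2.7.9a, HOMER 4.11 and bedtools 2.30.0. Reads and library were recovered for all 232302 values. TSSs were placed against Ensembl 115, without its 5896 transposable element genes, in 18358 genes and 35694 transcripts. Eligible bases followed the rule for members. Densities have exact Poisson intervals, their ratios conditional binomial ones, shares Wilson and differences Newcombe intervals; for upstream minus downstream, a Wilson interval of discordant members was used. Named genes were the hosts of the 20 most covered members, the 10 hosts with most members, and the host of each list's most covered member. Members and lists were chosen with earlier results of these data known. Genome sequence was not used here. Recovery, placement and ratios were tested on simulated data. Scripts ran under Python 3.11.15 with SciPy 1.17.1, NumPy 2.4.6, matplotlib 3.10.9 and pandas 2.3.3.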

Additional observations from a re-analysis of the deposited data

How the results depend on the processing

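No paired analysis was possible because the files hold 1 csRNA-seq value per TSS, each from 1 library, and no second group. For the same reason a library could not be removed from a value, and the TSSs valued from each library were left out in turn instead, with the deduplication repeated. The number of members then lay between 7614 (without the library of 5931389 reads) and 10138, the share near the host's start between 13.9% and 14.5%, the near-start over body ratio between 1.97 and 2.07, the median coverage between 4.1099 and 4.91, the share at coverage of at least 10 between 13.5% and 16.5%, and the share of hosts with a used start between 83.98% and 84.9%. The exon over intron ratio lay between 1.19 and 1.22 and the upstream minus downstream difference between -4.08 and -3.17. The initiator comparison was not run, as genome sequence was not used here. Of 101 alternative values, 39 lay within the interval of the main value (for the number of members, within 1.5 times), 59 lay outside it and 3 turned direction, whatever their own interval. The number of members was 11961, and between 11524 and 12038 under other distances to an own-strand start and other host annotations; it was 6625 at 3 or more reads, 3719 at 4 or more and 21752 in the full list before deduplication. The share near the host's start was 24.3% with zones of 1000 bp, 5.74% with 250 bp, 18.5% with the starts and ends of every transcript, 15.0% at coverage of at least 10, 17.5% in the full list, 12.7% at 500 bp from an own-strand start and 17.6% for clusters with at least 2 libraries. The near-start over body ratio of density stayed above 1, at 1.53 with zones of 250 bp, 2.10 with every transcript, 2.14 at coverage of at least 10, 2.57 in the full list and 2.61 for clusters with at least 2 libraries. The 3′ end over body ratio was 0.968 with zones of 250 bp and 0.967 in the full list. The exon over intron ratio was 1.02 on coding exon bases, 1.14 at coverage of at least 10, 1.04 more than 500 bp from starts of either strand, 1.09 in the body and 1.15 outside transposable elements. The upstream minus downstream difference was the least stable value. It turned to 4.197 percentage points without partners near annotated starts and to 4.09 in the body. At coverage of at least 10 it was 0.39, with an interval of -2.65 to 3.43 that includes 0. It was -0.46 within 250 bp, -7.40 within 1000 bp and -0.61 for clusters with at least 2 libraries. The share of hosts with a used start was 77.4% with a limit of 50 bp and 77.8% with a coverage of at least 10, where hosts exceeded other genes by 40.2 percentage points. The members' median coverage was 7.37 at 3 or more reads and 5.06 as the sum of the cluster, and 26.8% and 27.2% then reached 10. The restrictions to the body, to clusters with at least 2 libraries, to members outside transposable elements, to 500 bp in the comparison of zones and to full-list partners, and the omission of each library's TSSs, were chosen after seeing the data. Why these values moved was not tested. Most members rest on 2 or 3 reads, which limits every coverage given for a single weak TSS.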

Other observations

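Density was similar over the large chromosome arms, with 129.5 to 145.6 members per Mb of eligible bases on 2L, 2R, 3L, 3R and X. Chromosome 4, which is small and largely heterochromatic, held 170 members at 168.2 per Mb (143.9 to 195.5), and 33 of them reached a coverage of at least 10. Chromosome Y held 25 members at 22.7 per Mb (14.7 to 33.5), with no correction for repeated bases at which short reads may not be placed uniquely.

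Inside annotated transposable elements, members numbered 187 (1.56%) at 49.1 per Mb, against 138.9 outside them, a ratio of 0.35 (0.30 to 0.41).

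Hosts other than protein-coding genes were mostly noncoding RNA genes, with 294 genes in 529 pairs of member and host. At 35 members a deduplicated TSS of the other strand lay on the very same base. Close to the distance limit of the rule, the 47 members 201 to 300 bp from an own-strand start had a median coverage of 5.48, and the 51 TSSs at 101 to 200 bp that met the rule otherwise had 5.06.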
